A study of Mus musculus with 6 samples.

Results

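The glycolytic gene set comprised 35 genes chosen by name: enzymes of glycolysis, the PFKFB enzymes that tune its committed step, lactate dehydrogenases, pyruvate dehydrogenase and its kinases, phosphoglucomutases, Gpd2, and transporters of glucose and lactate. Of the 35 genes, 34 had an entry of their own among the 26082 names of the expression table. Tpi1 was present only in an entry joined with Usp5. Genes were tested where their mean across all samples reached 1 FPKM, which 33 of the set and 11130 genes in all did. Slc2a3, with a mean of 1.31 FPKM, lay just inside this limit, and Eno2, with all samples at 0.0117 FPKM or less, outside it. FPKM (fragments scaled to transcript length and to the mapped fragments of a library) is a level per transcript length, so different genes can be set side by side on this scale.

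The samples were MLL-AF9 leukemia cells from the bone marrow of C57BL/6J mice, a model of acute myeloid leukemia in which a retrovirus carries the fusion oncogene MLL-AF9 into c-Kit+ marrow progenitors that are then transplanted. Mice of the vehicle group (n = 3 samples) and of the DS-5272 group (n = 3 samples) were dosed by mouth, the latter with 80 mg/kg of DS-5272, which blocks the binding of MDM2 to p53 and so stabilizes p53. In both groups the cells were collected 24 h after dosing and purified on a cell sorter before bulk RNA-Seq. All 6 samples carry MLL-AF9, the oncogene is driven by the viral vector rather than by its own promoter, and the labels give neither the sort gate nor the age of the animals. The study's vector can carry GFP, and a gate on GFP would leave out cells without the vector, but no gate is stated for these samples. Nothing in the labels says that each sample was a separate animal, so the p-values measure the spread between these samples, which may be technical in part.

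Glycolysis converts glucose to pyruvate in the cytosol. Transporters of the SLC2A family let glucose in, hexokinases trap it by phosphorylation, phosphofructokinase commits it, and the lower steps yield ATP and NADH. Pyruvate is either reduced to lactate by lactate dehydrogenase and leaves the cell through SLC16A transporters, or enters mitochondria and is oxidized by pyruvate dehydrogenase, which its kinases switch off. Most steps are served by several isozymes, and many of their genes are known targets of HIF1 and MYC. The comparison asks how the genes of this pathway, isozyme by isozyme, differed in leukemia cells after the MDM2 inhibitor.

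The FPKM values of all entries summed to 445316 to 501241 in the vehicle samples and to 499229 to 661184 in the DS-5272 samples. Read totals were not given. From the steps of low FPKM values, the depth of vehicle replicates 2 and 3 was estimated at 0.808 and 0.885 of that of vehicle replicate 1, and that of DS-5272 replicates 1, 2 and 3 at 0.746, 0.652 and 0.539, so each vehicle sample was deeper. Of 10 neutrophil markers, 8 were higher with DS-5272 (10 with the replicate number as a block), and their summed FPKM was 312 to 1550 with vehicle and 2448 to 10300 with DS-5272. Of the 8, Ly6g passed the filter of 1 FPKM only through the DS-5272 samples and had to lie higher. Of 10 macrophage markers, 4 were higher (6 with the block), at a sum of 64.2 to 117 and 189 to 445 FPKM. Mrc1, Axl and Spic of that list also passed the filter only through the DS-5272 samples, and Spic was among the 6. These 4 markers were named after their values were seen. Among 10 genes of leukemia and myeloid identity, 3 were higher and 4 lower. Erythroid markers summed to 1.95 to 3.87 FPKM with vehicle and 8.30 to 91.6 with DS-5272, with 1 of 2 tested markers higher and Rhag at 0 in all samples. DS-5272 replicate 1 stood apart, with the erythroid sum at 91.6 FPKM against 16.9 and 8.30 in DS-5272 replicates 2 and 3, and the macrophage sum at 445 against 189 and 244. T cell markers summed to 2.59 to 2.82 and 3.54 to 6.23 FPKM, B cell markers to 4.52 to 5.37 and 3.52 to 4.58, and the 6 NK cell markers, each under 1 FPKM on average, to 0.528 to 0.966 and 1.57 to 3.67. Stroma and endothelium markers summed to 29.0 to 60.0 and 73.4 to 112 FPKM, with 1 of 2 tested markers higher (2 with the block). Most of that sum was Pecam1, at 26.4 to 58.8 and 68.3 to 109 FPKM, and each other marker of the list was at 5.51 FPKM or less. Cdh5 and Kdr of the list were at 0.0758 FPKM or less in all samples. Pecam1, Cdh5 and Kdr were likewise named after their values were seen. The part of these markers' cells in the results that follow was not tested, and in bulk RNA fewer cells of a type and less RNA per cell cannot be told apart.

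Of the 33 genes tested, 11 were higher and 4 were lower with DS-5272 at an adjusted p under 0.05 (limma on log2(FPKM + 1), adjusted over all 11130 genes). That is 33.3% and 12.1% of the set, where 24.2% of all tested genes were higher and 22.0% were lower. The higher genes were Slc2a6, Hk2, Hk3, Aldoa, Pfkfb2, Pfkfb3, Pfkfb4, Pkm2, Slc16a3, Pdk2 and Pgm1, and the lower ones Ldha, Slc16a1, Pdk3 and Pdhb. The vehicle and DS-5272 samples did not overlap in 13 genes that lay higher and 9 that lay lower, and overlapped in 11. Over all tested genes, 32.1% lay higher and 29.7% lower without overlap. The median log2 fold change was 0.36 over the set and 0.04 over all tested genes. With the replicate number as a block, 17 genes were higher and 6 lower, since Slc2a1, Slc2a3, Hk1, Gpi1, Aldoc and Pgk1 joined the higher genes and Pfkm and Pdk1 the lower ones. The block gave 30.3% higher and 24.9% lower over all tested genes. Of the genes that joined, Slc2a3 passed the filter only through the DS-5272 samples and had to lie higher.

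The number of higher genes depended on how the samples were scaled. Rescaling each sample to a common FPKM total (TPM) moved the median log2 fold change of all tested genes to −0.19 and left 5 genes of the set higher and 9 lower, with a median of 0.12 over the set. Over all tested genes that scaling gave 15.4% higher and 31.9% lower. A common upper quartile moved the median of all genes to −0.08 and gave 9 higher and 8 lower genes, where 20.1% of all tested genes were higher and 28.6% lower. Under all 4 other scalings tried, 9 genes kept their call: Slc2a6, Hk3, Pfkfb4, Pkm2, Pgm1, Ldha, Slc16a1, Pdk3 and Pdhb. The 33 genes as a whole took up a similar part of the FPKM total in both groups, at 1.21% to 1.28% in the vehicle samples and 1.14% to 1.25% in the DS-5272 samples. From 90.5% to 92.0% of their summed FPKM came from 9 genes averaging above 100 FPKM: Gapdh, Pkm2, Gpi1, Aldoa, Pgam1, Eno1, Ldha, Pgk1 and Hk3.

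**Figure D1:**
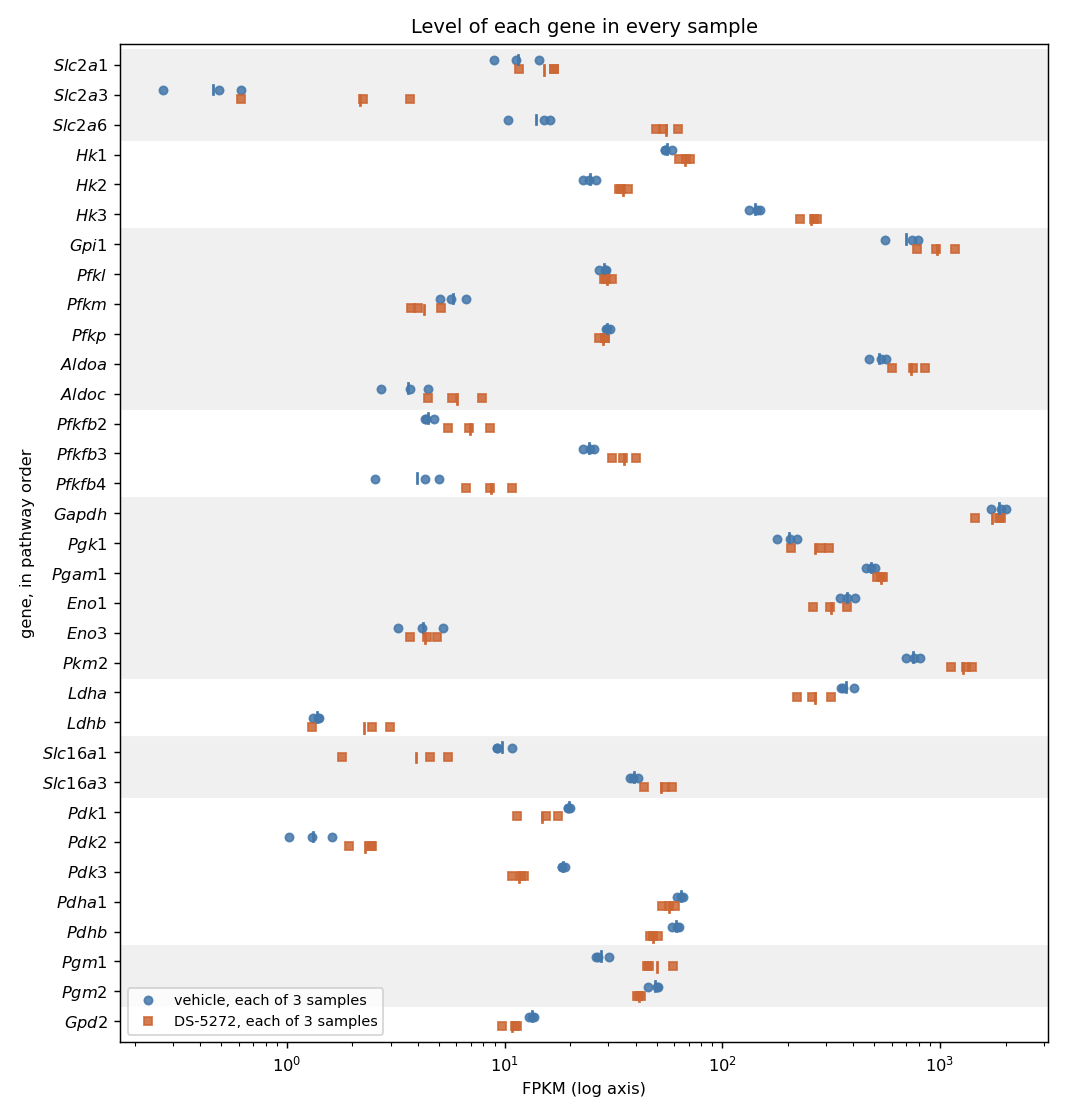
Level of the 33 tested genes in each sample. The x axis is FPKM on a log scale and the y axis lists the genes in pathway order, with grey bands marking steps. Circles are vehicle samples, squares DS-5272 samples (3 each), and short vertical lines the group means. Slc2a6, Hk3, Pkm2 and Pgm1 are clearly separated to the right with DS-5272 and Slc16a1 and Pdk3 to the left, while the circles and squares of Gapdh, Pgk1 and Eno3 overlap.

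At the entry of glucose, the transporter that passed the threshold was Slc2a6, which encodes GLUT6, a transporter found largely on lysosomes. Slc2a6 (chr2:27021363-27027998, minus strand, GRCm38) measured 16.2, 15.1 and 10.4 FPKM with vehicle and 62.4, 49.9 and 53.6 FPKM with DS-5272, in the order of replicates 1, 2 and 3, as for all values given by sample. Each DS-5272 sample was more than 3 times the highest vehicle sample. The mean rose 3.98-fold, and the log2 fold change was 1.93 ± 0.18 (SE, adjusted p = 0.0012, limma). Slc2a1, the gene of the main plasma membrane transporter GLUT1, measured 8.98, 14.4 and 11.3 FPKM with vehicle and 11.7, 16.8 and 16.9 FPKM with DS-5272, and these ranges overlapped. Its log2 fold change of 0.36 ± 0.21 did not pass (adjusted p = 0.18, limma), but did with the replicate block (0.035). Slc2a3, for the high-affinity transporter GLUT3, was at 0.268, 0.619 and 0.486 FPKM with vehicle and 0.617, 2.24 and 3.66 FPKM with DS-5272. The mean with DS-5272 was 4.74 times that with vehicle, from values near the filter. It passed the filter of 1 FPKM only through the DS-5272 samples, so its difference of 1.0 ± 0.37 on the log2 scale (adjusted p = 0.065, limma, and 0.020 with the block) had to point upward.

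Of the 3 hexokinase genes, 2 were higher. Hk3 encodes the isozyme typical of myeloid cells, which does not bind mitochondria. Hk3 (chr13:55005985-55021385, minus strand) was already the most abundant hexokinase at 144, 133 and 149 FPKM with vehicle and reached 263, 227 and 273 FPKM with DS-5272, with no overlap. An exon of Unc5a on the opposite strand overlaps Hk3, but Unc5a was at 1.18 FPKM at most. The mean of Hk3 rose 1.79-fold (log2 fold change 0.83 ± 0.11, adjusted p = 0.0035, limma). Hk2, the mitochondria-bound isozyme often induced in tumors, went from 22.96, 26.2 and 24.5 FPKM to 36.8, 34.3 and 33.6 FPKM (log2 fold change 0.49 ± 0.09, adjusted p = 0.0082, limma), but its difference was 0.23 with an adjusted p of 0.23 after rescaling to a common total. Hk1, the isozyme present in most tissues, measured 54.8, 54.5 and 58.5 FPKM and 63.5, 68.1 and 70.7 FPKM. The groups did not overlap, and its adjusted p was 0.0518 (limma) and 0.047 with the block. With a common total the difference of Hk1 was 0.0015 (adjusted p = 0.99, limma), and after quantile normalization 0.07 (0.46). Neutrophil markers were higher in the same DS-5272 samples, and their part in the Hk3 and Slc2a6 values was not tested.

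The 250 bases before the start site of Slc2a6 and Hk3, which carry the widest rises among the called transporters and hexokinases of the set, are given here from the RefSeq promoter table (GRCm38.p6), read 5′ to 3′ on the strand of the gene. Capitals mark ACGTG or its reverse complement, a form of the core of the hypoxia response element to which HIF1 binds. The other form of that core, GCGTG, was not counted or marked. The Slc2a6 stretch is chr2:27027999-27028248 and holds no ACGTG match, though it does hold GCGTG, left in small letters. The Hk3 stretch is chr13:55021386-55021635 and holds 1 match. No annotated exon overlapped either stretch.
Slc2a6: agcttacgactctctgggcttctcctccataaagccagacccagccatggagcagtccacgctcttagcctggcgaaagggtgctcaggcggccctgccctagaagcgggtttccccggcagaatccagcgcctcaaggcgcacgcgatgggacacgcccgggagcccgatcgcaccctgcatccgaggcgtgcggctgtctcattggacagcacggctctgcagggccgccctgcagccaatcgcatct
Hk3: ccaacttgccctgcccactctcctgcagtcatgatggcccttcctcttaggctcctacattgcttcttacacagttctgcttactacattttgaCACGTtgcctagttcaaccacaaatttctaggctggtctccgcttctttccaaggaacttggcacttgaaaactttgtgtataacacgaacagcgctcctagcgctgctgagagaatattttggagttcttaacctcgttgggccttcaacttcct

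In the upper steps, Aldoa was the single gene past the threshold out of 6 tested. Aldoa, the main aldolase gene, measured 469.8, 566 and 534 FPKM with vehicle and 603, 755 and 854 FPKM with DS-5272. These did not overlap (log2 fold change 0.48 ± 0.16, adjusted p = 0.0493, limma), but the call was lost without any of vehicle replicates 1, 2 or 3 or DS-5272 replicates 2 or 3 (adjusted p 0.098 to 0.14), without the filter (0.10), and with a common total (0.051) or quantile normalization (0.37, difference 0.08). Gpi1, for glucose-6-phosphate isomerase, was at 559, 746 and 790.0 FPKM and 784, 954 and 1169 FPKM. Its highest vehicle sample lay above its lowest DS-5272 sample, and it passed only with the replicate block (adjusted p = 0.10 without and 0.0051 with it, limma). Aldoc, the brain-type aldolase, had a low level of 3.67, 4.45 and 2.698 FPKM and 7.905, 5.73 and 4.44 FPKM (adjusted p = 0.065, limma, and 0.020 with the block).

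The 3 subunits of phosphofructokinase, the committing enzyme, did not pass. Pfkl, the liver-type subunit, measured 27.2, 29.4 and 28.98 FPKM and 28.7, 29.3 and 31.1 FPKM, and Pfkp, the platelet type, 29.1, 30.4 and 29.4 FPKM and 27.2, 28.8 and 28.8 FPKM. Pfkl overlapped between the groups, the Pfkp samples lay just below with DS-5272, and the Pfkl difference changed sign with the scaling (0.06 as deposited and −0.20 with a common total). The summed FPKM of the 3 subunits was 63.9 ± 1.34 with vehicle and 62.3 ± 1.501 with DS-5272 (SD, n = 3 each, exact permutation p = 0.3, two-sided). Pfkm, the muscle-type subunit, had 6.63, 5.7 and 5.05 FPKM and 5.11, 3.74 and 4.01 FPKM, with a difference of −0.36 on the log2 scale (adjusted p = 0.082, limma, and 0.038 with the block). Exons of Pfkm overlap those of Senp1 on the opposite strand, which went from a mean of 23.9 FPKM to 15.4 FPKM. Exons of Pfkp likewise overlap those of Pitrm1 on the opposite strand, which went from a mean of 40.5 FPKM to 18.4 FPKM. Whether the quantification used strand is not stated, so both genes and the sum of the 3 subunits are uncertain to that extent.

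The 3 PFKFB genes of the set were higher, Pfkfb1, described with the neighbouring genes, was lower, and no subunit of the enzyme they act upon passed. PFKFB enzymes make and degrade fructose-2,6-bisphosphate, the strongest activator of phosphofructokinase. Pfkfb3, the form with the highest kinase activity, measured 22.8, 25.8 and 24.7 FPKM with vehicle and 34.96, 31.3 and 40.2 FPKM with DS-5272 (log2 fold change 0.51 ± 0.12, adjusted p = 0.014, limma). Pfkfb4, whose protein has both activities, measured 2.53, 4.29 and 5.01 FPKM and 6.67, 8.58 and 10.8 FPKM, a 2.2-fold rise of the mean (log2 fold change 0.98 ± 0.24, adjusted p = 0.017, limma). Pfkfb2, the heart-type form, measured 4.73, 4.29 and 4.35 FPKM and 6.84, 5.51 and 8.53 FPKM (adjusted p = 0.031, limma). None of the 3 genes overlapped between the groups. Without vehicle replicate 1 the adjusted p of Pfkfb3 was 0.0502, and Pfkfb2 passed only in the fit without DS-5272 replicate 2 (0.053 to 0.10 in the other 5). With a common total, Pfkfb2 and Pfkfb3 had adjusted p-values of 0.17 and 0.12, and Pfkfb2 had 0.059 with a common upper quartile and 0.067 without the filter.

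The entry that joins Tpi1, for triosephosphate isomerase, with Usp5, a deubiquitinase gene, fell. It measured 210.4, 258 and 243 FPKM with vehicle and 129.98, 176 and 123 FPKM with DS-5272 (log2 fold change −0.74 ± 0.17, adjusted p = 0.013, limma). The value cannot be assigned to either gene and was left out of every count.

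**Figure D2:**
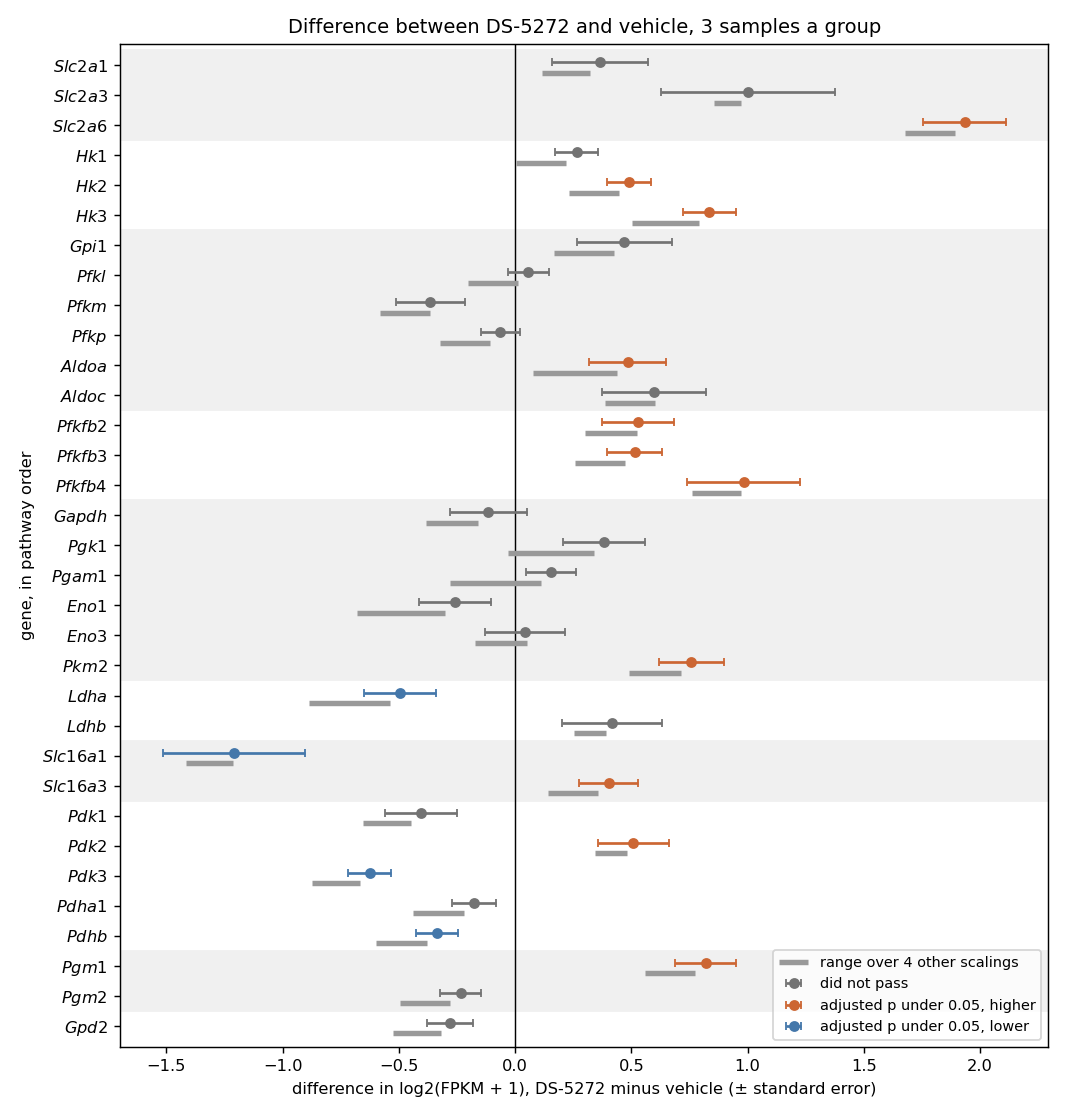
Difference of each tested gene between the groups. The x axis is the DS-5272 minus vehicle difference in log2(FPKM + 1) and the y axis lists the genes in pathway order. Points with bars are the difference and its standard error from limma (n = 3 each), orange for higher and blue for lower genes at an adjusted p under 0.05 and grey for the rest, and the grey strip under each point spans 4 other scalings. Slc2a6 lies farthest right at 1.93 and Slc16a1 farthest left at −1.21.

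In the lower steps, Pkm2 was the single gene past the threshold. Pkm2 is the older symbol of Pkm (chr9:59656368-59679375, plus strand), whose transcripts encode the M1 and M2 forms of pyruvate kinase, and a value per gene does not separate the forms. It measured 694, 811 and 757 FPKM with vehicle and 1125, 1315 and 1397 FPKM with DS-5272. The groups did not overlap, and the mean rose 1.7-fold (log2 fold change 0.76 ± 0.14, adjusted p = 0.0073, limma). In all 6 fits that left out a sample, Pkm2 was called.

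The 4 abundant genes between aldolase and pyruvate kinase did not pass. Gapdh, the glyceraldehyde-3-phosphate dehydrogenase gene and the most abundant of the set, was at 1711, 2015 and 1897 FPKM with vehicle and 1451, 1899.8 and 1863 FPKM with DS-5272. Its difference was −0.12 ± 0.17 (adjusted p = 0.59, limma), but −0.38 and past the threshold with a common total (0.011) or quantile normalization (0.020), and 0.01 without DS-5272 replicate 1. Eno1, the main enolase gene, had 346, 407 and 374 FPKM and 262, 374 and 313 FPKM, with a difference of −0.26 ± 0.16 (adjusted p = 0.21, limma) that also passed under 3 of the 4 other scalings. A retrogene copy of enolase, Gm5506, was listed at 3.32 to 5.29 FPKM, and near-identical copies of Gapdh, Pgk1, Pgam1, Aldoa and Ldha could share reads with them, so these values are uncertain to that extent. Pgk1, for phosphoglycerate kinase, measured 179, 221 and 205 FPKM and 207, 309.8 and 283 FPKM (adjusted p = 0.12, limma, and 0.017 with the block). Pgam1, for phosphoglycerate mutase, measured 503, 479.5 and 457 FPKM and 548, 538 and 515 FPKM (adjusted p = 0.27, limma). The sign of both depended on the scaling, at −0.03 for Pgk1 and −0.28 for Pgam1 after quantile normalization. Eno3, the muscle enolase, lay at 3.24 to 5.20 FPKM over all samples, and Eno2, the neuronal form, at 0 to 0.0117 FPKM, below the filter.

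Lactate dehydrogenase and the lactate transporters differed in direction. Ldha (chr7:46841475-46855627, plus strand), whose product favours the reduction of pyruvate to lactate, measured 352, 401 and 360.2 FPKM with vehicle and 258, 317 and 221 FPKM with DS-5272. Every DS-5272 sample lay below every vehicle sample (log2 fold change −0.5 ± 0.16, adjusted p = 0.038, limma). Ldha passed in the fit without DS-5272 replicate 2 but not without any other sample (vehicle replicates 1, 2 and 3 and DS-5272 replicates 1 and 3, adjusted p 0.068 to 0.13), and had 0.065 without the filter. Under the 4 other scalings it was called lower each time, with a difference between −0.89 and −0.54. Ldhb, for the subunit that favours lactate oxidation, was low at 1.397, 1.398 and 1.33 FPKM and 2.98, 1.31 and 2.47 FPKM and overlapped (adjusted p = 0.15, limma).

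Slc16a1 encodes MCT1, a transporter that carries lactate in either direction. Slc16a1 (chr3:104638668-104658462, plus strand) measured 10.8, 9.21 and 9.27 FPKM with vehicle and 5.51, 4.52 and 1.79 FPKM with DS-5272. DS-5272 replicate 3 was the lowest, and the mean was 0.403 of that with vehicle (log2 fold change −1.21 ± 0.31, adjusted p = 0.019, limma). The adjusted p was 0.050 to 0.060 without vehicle replicate 1, 2 or 3, and the difference was −0.84 without DS-5272 replicate 3. Slc16a3 encodes MCT4, which serves lactate export in glycolytic cells and macrophages. Slc16a3 (chr11:120948480-120960868, plus strand) measured 37.5, 40.97 and 39.1 FPKM and 43.8, 54.7 and 58.9 FPKM, with no overlap (log2 fold change 0.4 ± 0.13, adjusted p = 0.041, limma). Its call was lost without vehicle replicate 1, 2 or 3 or DS-5272 replicate 2 or 3 (adjusted p 0.086 to 0.11), with a common total (0.23), with quantile normalization (0.058) and without the filter (0.055). Macrophage markers summed to 445, 189 and 244 FPKM in DS-5272 replicates 1, 2 and 3, and not every marker of the list followed that order. Their part in the Slc16a3 values was not tested.

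The stretches before the starts of Ldha, Slc16a1 and Slc16a3 are shown because these neighbouring genes of the pathway differed in direction while each holds the ACGTG letters, again in capitals. The E-box CACGTG, to which MYC binds, contains ACGTG on both strands. The Ldha stretch (chr7:46845554-46845803) lies in an intron of a longer Ldha transcript. The Slc16a1 stretch (chr3:104638414-104638663) overlapped no annotated gene. The Slc16a3 stretch (chr11:120948817-120949066) lies within the gene model, and its last 14 bases lie in an annotated Slc16a3 exon.
Ldha: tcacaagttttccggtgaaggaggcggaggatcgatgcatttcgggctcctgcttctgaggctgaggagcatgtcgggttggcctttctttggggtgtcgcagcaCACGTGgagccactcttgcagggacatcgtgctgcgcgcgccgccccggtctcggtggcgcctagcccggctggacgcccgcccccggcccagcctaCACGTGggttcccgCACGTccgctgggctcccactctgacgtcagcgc
Slc16a1: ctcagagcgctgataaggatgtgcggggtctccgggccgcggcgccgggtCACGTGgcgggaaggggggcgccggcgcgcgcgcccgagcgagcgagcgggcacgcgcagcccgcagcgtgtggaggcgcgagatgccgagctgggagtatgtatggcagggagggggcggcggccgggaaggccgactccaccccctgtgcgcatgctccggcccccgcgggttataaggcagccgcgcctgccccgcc
Slc16a3: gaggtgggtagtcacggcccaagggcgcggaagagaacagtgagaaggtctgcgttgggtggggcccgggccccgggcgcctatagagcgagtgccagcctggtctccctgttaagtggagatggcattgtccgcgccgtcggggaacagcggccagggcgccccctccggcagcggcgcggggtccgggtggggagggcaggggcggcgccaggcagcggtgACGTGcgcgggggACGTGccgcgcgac

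At the gate to mitochondria, the kinases that inactivate pyruvate dehydrogenase differed in direction. Pdk3 fell from 18.9, 18.3 and 18.4 FPKM to 11.95, 12.2 and 10.8 FPKM (log2 fold change −0.63 ± 0.09, adjusted p = 0.0040, limma), with no overlap and a call in every fit that left out a sample. Pdk1, the kinase known as a HIF1 target, measured 19.5, 20.003 and 19.5 FPKM and 17.6, 15.5 and 11.4 FPKM. Its groups did not overlap either, with a difference of −0.41 ± 0.16 (adjusted p = 0.071, limma, and 0.048 with the block). Pdk2 was the scarcest at 1.303, 1.61 and 1.02 FPKM and 2.46, 1.94 and 2.44 FPKM, and was higher (log2 fold change 0.51 ± 0.15, adjusted p = 0.033, limma), but lost its call without any sample other than DS-5272 replicate 2 (vehicle replicates 1, 2 and 3 and DS-5272 replicates 1 and 3, 0.052 to 0.12), and with a common upper quartile (0.067) or total (0.16). The complex itself is built from an alpha and a beta subunit at its E1 core. Pdhb, for the beta subunit, measured 58.5, 61.8 and 63.3 FPKM and 46.5, 50.5 and 47.9 FPKM and fell (log2 fold change −0.34 ± 0.09, adjusted p = 0.021, limma), with adjusted p-values of 0.088 and 0.099 without vehicle replicate 2 or 3. Pdha1, for the alpha subunit, measured 61.98, 64.7 and 66.2 FPKM and 52.8, 56.9 and 60.8 FPKM (adjusted p = 0.16, limma), and was called lower under 3 of the 4 other scalings.

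Phosphoglucomutases link glucose-6-phosphate with glycogen and sugar nucleotides. The entry named Pgm1 measured 26.2, 26.9 and 30.2 FPKM with vehicle and 44.9, 46.1 and 59.1 FPKM with DS-5272, a 1.8-fold rise without overlap (log2 fold change 0.82 ± 0.13, adjusted p = 0.0052, limma). The entry named Pgm2 measured 45.6, 50.3 and 50.8 FPKM and 41.5, 40.5 and 42.2 FPKM, also without overlap, with a difference of −0.23 ± 0.09 that did not pass (adjusted p = 0.069, limma). These 2 symbols were exchanged between mouse annotations, so the values are given by the symbol in the table and no position is assigned. Gpd2, for the mitochondrial glycerol-3-phosphate dehydrogenase that takes up cytosolic reducing equivalents, measured 12.99, 13.3 and 13.6 FPKM and 9.75, 11.5 and 11.2 FPKM (difference −0.28, adjusted p = 0.055, limma). Pgm2 and Gpd2 were both called lower under all 4 other scalings, with differences from −0.50 to −0.28 and from −0.53 to −0.32.

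Because a share of a family's FPKM does not depend on a factor common to all genes of a sample, the isozymes were also compared as shares. Within the SLC2A genes of the set, Slc2a6 held 53.6 ± 8.95% of the summed FPKM in the vehicle samples and 76.1 ± 6.496% in the DS-5272 samples (mean ± SD, n = 3 each, as for all shares), and Slc2a1 held 44.7 ± 8.33% and 20.9 ± 4.69%. Among hexokinases, Hk3 held 63.8 ± 1.43% and 71.2 ± 2.02%, and Hk1 25.2 ± 0.421% and 18.97 ± 1.63%. Of the sum of Slc16a1 and Slc16a3, which leaves out Slc16a7, Slc16a1 held 19.97 ± 2.13% with vehicle and 7.25 ± 4.13% with DS-5272. Pgm1 held 36.2 ± 1.26% and 54.5 ± 3.38% of the phosphoglucomutase sum, and Pdk2 3.31 ± 0.709% and 8.04 ± 1.69% of the PDK sum. For each of these isozymes the groups did not overlap, which was so for 11 of the 20 shares computed. Over all tested genes, taken singly by FPKM, 32.1% lay higher and 29.7% lower without overlap. Shares within a family add up to a fixed whole, so a rise and a fall in the same family are not separate results. With 3 samples against 3, an exact two-sided permutation test cannot go below p = 0.1, which all 11 reached, and the lowest p adjusted over the 20 shares was 0.18. Aldoa and Eno1 held 99.3 ± 0.158% and 98.9 ± 0.235% of their families with vehicle and 99.1 ± 0.398% and 98.6 ± 0.365% with DS-5272, with overlap.

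**Figure D3:**
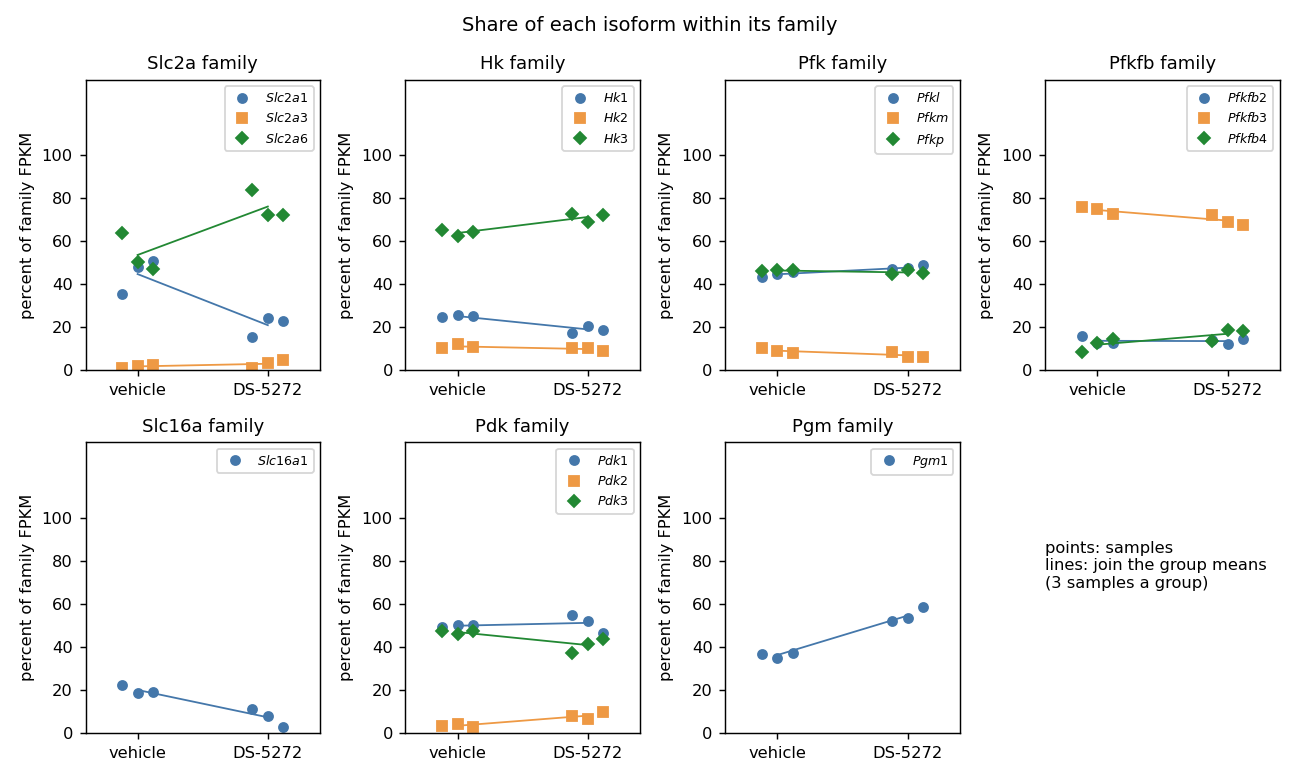
Share of each isozyme in its family by sample. The y axis is the percent of the family's summed FPKM, the x axis the treatment group, points are samples (3 each) and lines join the group means. Slc2a6 and Hk3 lie higher and Slc2a1, Hk1 and Slc16a1 lower with DS-5272, while the Pfk panel is close to level.

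The summed FPKM of each family gives the other side of these shares. The sum of the 3 SLC2A genes of the set was 25.9 ± 3.98 with vehicle and 72.6 ± 3.16 FPKM with DS-5272 (SD, n = 3 each), 2.80-fold higher. It leaves out Slc2a8 (means of 3.97 and 4.12 FPKM) and Slc2a9 (13.6 and 18.2 FPKM). Both lie outside the set and were named after their values were seen. The hexokinase sum was 222 ± 9.23 and 356 ± 24.9 FPKM, 1.60-fold higher. The PFKFB sum, which leaves out Pfkfb1, was 1.56-fold and the aldolase sum 1.41-fold that with vehicle. The lactate dehydrogenase sum was 0.718 and the PDK sum 0.728 of that with vehicle. At the deposited scale those 6 sums did not overlap between the groups. Nor did the phosphoglucomutase sum, at 76.7 ± 4.61 and 91.4 ± 8.52 FPKM. No family sum was repeated under another scaling, so each carries the difference in FPKM totals. These were 445316 to 501241 with vehicle and 499229 to 661184 with DS-5272. The enolase sum, at 0.845 of that with vehicle, overlapped. Of all tested genes, 32.1% lay higher and 29.7% lower without overlap. The sum of Slc16a1 and Slc16a3 was 49.0 ± 1.05 and 56.4 ± 6.20 FPKM and overlapped, with its 2 genes differing in opposite directions (exact permutation p = 0.2, two-sided). Adding Slc16a7, a lactate transporter gene outside the set that was chosen after the data were seen, gave 51.9, 53.4 and 52.3 FPKM with vehicle and 57.9, 68.9 and 73.9 FPKM with DS-5272. That sum did not overlap at the deposited scale (exact permutation p = 0.1, two-sided), and it too was not repeated under another scaling.

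Ratios within a sample put the divergent neighbours side by side. These pairs were chosen with their values known and are given as a description. Pkm2 was 2.03 ± 0.0652 times Ldha in the vehicle samples and 4.94 ± 1.196 times in the DS-5272 samples (mean ± SD, n = 3 each, as for all ratios). The ratio of Pkm2 to Eno1, which act in succession, was 2.01 ± 0.0153 and 4.09 ± 0.504. Vehicle samples barely varied in these ratios, whereas DS-5272 samples did. Slc16a3 exceeded Slc16a1 by a ratio of 4.04 ± 0.512 with vehicle and 17.7 ± 13.4 with DS-5272, widest in DS-5272 replicate 3. Pgm1 was below Pgm2 in each vehicle sample, at a ratio of 0.568 ± 0.0308, and above it in each DS-5272 sample, at 1.21 ± 0.17. The ratio of Aldoa to Gapdh, consecutive steps apart from triosephosphate isomerase, was 0.279 ± 0.00382 and 0.424 ± 0.0315.

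**Figure D4:**
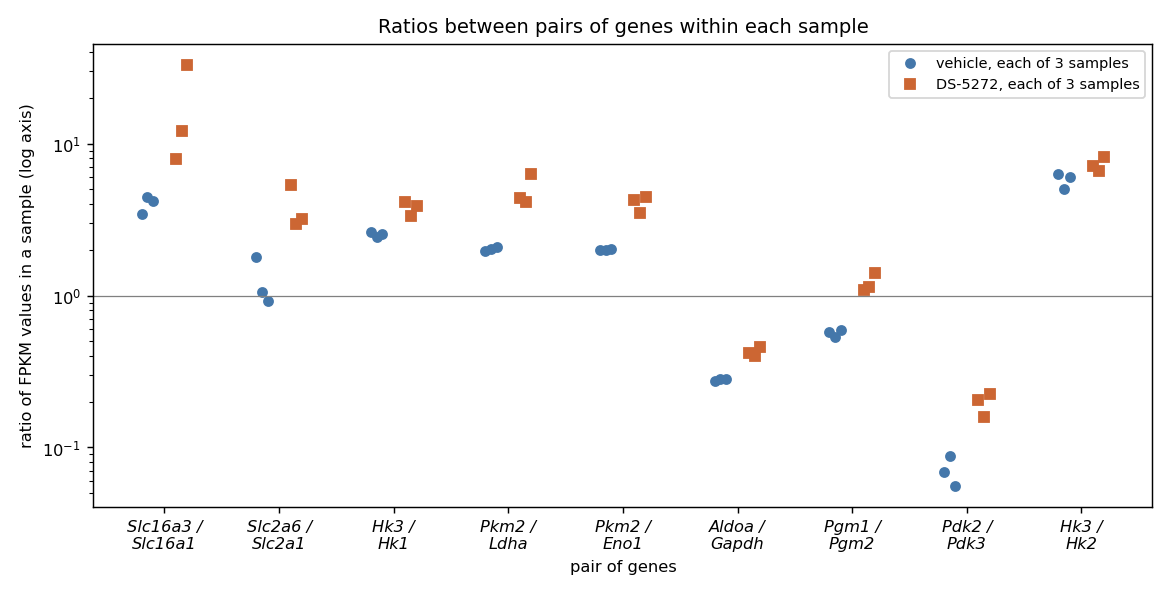
Ratio of FPKM values between pairs of genes within each sample. The y axis is the ratio on a log scale, the x axis the pair, circles vehicle and squares DS-5272 samples (3 each), and the grey line marks a ratio of 1. In all 9 pairs the squares lie above the circles, and Pgm1 over Pgm2 crosses 1.

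The ACGTG letters were counted on both strands in the 250 bases before the starts of the genes, from the RefSeq promoter table (GRCm38.p6). A window was given for 30 of the 33 tested genes, and 17 of them (56.7%) had a match in at least 1 window. Of the 7456 tested genes with a window in the table, 1950 (26.2%) had a match. Counted by window, 21 of the 47 windows of the set (44.7%) and 16.6% of all 32851 windows had a match. A gene with several windows had more chances of a match. By outcome, a match was found in 8 of 10 higher genes, 4 of 4 lower genes and 5 of 16 genes that did not pass. Matches by outcome were not counted over all tested genes or by window, so this split has no background to be read against. The lower genes Ldha, Slc16a1, Pdk3 and Pdhb thus held ACGTG, and the higher genes Slc2a6 and Pfkfb4 did not. GCGTG, the other form of the core, was not counted in any gene, so a gene without a match may still hold a core. The E-box CACGTG, each instance of which is also an ACGTG match, was in 6 of the 30 genes and in 10.4% of the tested genes with a window. A match describes letters in this window and is not evidence of binding.

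Genes around the pathway were read from 8 lists of 97 genes, of which 95 had an entry and 71 were tested. Of the 71 genes, 17 were higher and 14 lower (23.9% and 19.7%, where the shares of all genes were 24.2% and 22.0%). Both subunits of the mitochondrial pyruvate carrier were higher. Mpc2 measured 25.2, 28.7 and 31.1 FPKM with vehicle and 56.4, 69.02 and 94.2 FPKM with DS-5272 (log2 fold change 1.31 ± 0.19, adjusted p = 0.0040, limma), and Mpc1 53.3, 63.5 and 57.95 FPKM and 79.7, 89.5 and 107 FPKM. Mpc1 was named after its values were seen, as the partner of Mpc2. In that list of pyruvate entry, 2 of 8 tested genes were higher and 3 lower (4 lower with the block). Among the lower ones was Pdpr, the regulatory subunit of the pyruvate dehydrogenase phosphatase, with a log2 fold change of −0.53 (adjusted p = 0.013, limma). Of the other glucose and monocarboxylate transporters, 3 of 6 tested were higher and none lower. With the block 4 were higher, and with a common total 2 were higher and 1 lower. The widest rise of that list was in Slc16a7, the gene of the pyruvate and lactate transporter MCT2, at 3.59, 3.25 and 3.97 FPKM and 8.63, 9.72 and 13.2 FPKM.

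Of 6 tested further glycolytic isozymes, Adpgk was higher and Pfkfb1 lower (2 higher and 1 lower with the block). Adpgk, the ADP-dependent glucokinase, varied widely among the DS-5272 samples, at 23.4, 33.04 and 42.2 FPKM with vehicle and 52.7, 98.4 and 150.1 FPKM with DS-5272 (log2 fold change 1.5 ± 0.39, adjusted p = 0.020, limma), and lost its call without vehicle replicate 1 or 2 or DS-5272 replicate 2 (0.058 to 0.065). Pfkfb1, the liver-type PFKFB gene, measured 3.04, 3.37 and 3.41 FPKM and 1.12, 1.78 and 1.82 FPKM, against the direction of the other 3 PFKFB genes. In glycogen metabolism, 4 of 13 tested genes were higher and 1 lower. With the block 4 were higher and 0 lower, and with a common total 3 were higher and 2 lower. Pygl, for the liver-type glycogen phosphorylase that neutrophils also express, measured 124, 195 and 199 FPKM and 281, 386 and 620.5 FPKM (adjusted p = 0.019, limma, and 0.057 without vehicle replicate 1). Neutrophil markers were higher in the same samples, and their part in the Pygl values was not tested. Pygb, the brain-type form, had a difference of −0.3 (adjusted p = 0.041, limma, and 0.054 with the block) and lost its call without any 1 of the 6 samples (0.060 to 0.15).

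The NADH shuttles had 1 higher gene, the oxoglutarate carrier Slc25a11 (log2 fold change 0.52, adjusted p = 0.0096, limma), and 2 lower genes of 8 tested, with the aspartate-glutamate carrier Slc25a13 lowest at −0.93 (adjusted p = 0.0075). With a common total the difference of Slc25a11 was 0.26 (adjusted p = 0.056, limma), and the list had 5 lower and no higher genes. Gluconeogenesis and glycolytic brakes had 2 lower and no higher genes of 6 tested, and 3 lower with a common total. Pcx, for pyruvate carboxylase, measured 2.53, 4.07 and 3.66 FPKM and 1.72, 1.24 and 0.795 FPKM (log2 fold change −0.98, adjusted p = 0.011, limma). Tigar, a p53 target that lowers fructose-2,6-bisphosphate, measured 12.6, 11.7 and 11.8 FPKM and 15.7, 12.9 and 11.7 FPKM, and its difference of 0.14 ± 0.12 did not pass (adjusted p = 0.39, limma). For the entry of other sugars, 3 of 11 tested genes were higher and 3 lower, and 0 higher and 3 lower with a common total. The galactokinase gene Galk1 was lowest at −1.15 (adjusted p = 0.012, limma) and Gnpda1, which feeds glucosamine-6-phosphate into glycolysis, highest at 0.67 (adjusted p = 0.045, limma). Gnpda1 lost its call without vehicle replicate 2 or 3 or DS-5272 replicate 1 or 3 (0.11 to 0.14), and with a common total (0.25, difference 0.41).

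Among 13 tested regulators, 3 were higher and 2 lower, and 2 higher and 2 lower with a common total. Hif1a, the oxygen-regulated subunit of HIF1, measured 39.8, 42.4 and 42.6 FPKM with vehicle and 85.99, 79.2 and 98 FPKM with DS-5272 (log2 fold change 1.05 ± 0.11, adjusted p = 0.0016, limma). Every DS-5272 sample was well above every vehicle sample. Egln3, a HIF prolyl hydroxylase that is itself a HIF1 target, measured 18.7, 13.8 and 12.6 FPKM and 5.22, 6.06 and 2.89 FPKM (log2 fold change −1.51 ± 0.25, adjusted p = 0.0055, limma). Myc, which activates many glycolytic genes, measured 49.5, 45.9 and 50.8 FPKM and 30.2, 26.1 and 10.3 FPKM, with the lowest value in DS-5272 replicate 3 (log2 fold change −1.23 ± 0.36, adjusted p = 0.031, limma). Without vehicle replicate 1, 2 or 3 the adjusted p of Myc was 0.078 to 0.082, and without DS-5272 replicate 3 its difference was −0.77. Txnip, whose protein lowers glucose uptake, measured 57.3, 60.5 and 65.9 FPKM and 77.3, 110.0 and 164 FPKM (adjusted p = 0.032, limma), and lost its call without vehicle replicate 1, 2 or 3 or DS-5272 replicate 2 (0.068 to 0.091).

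**Figure D5:**
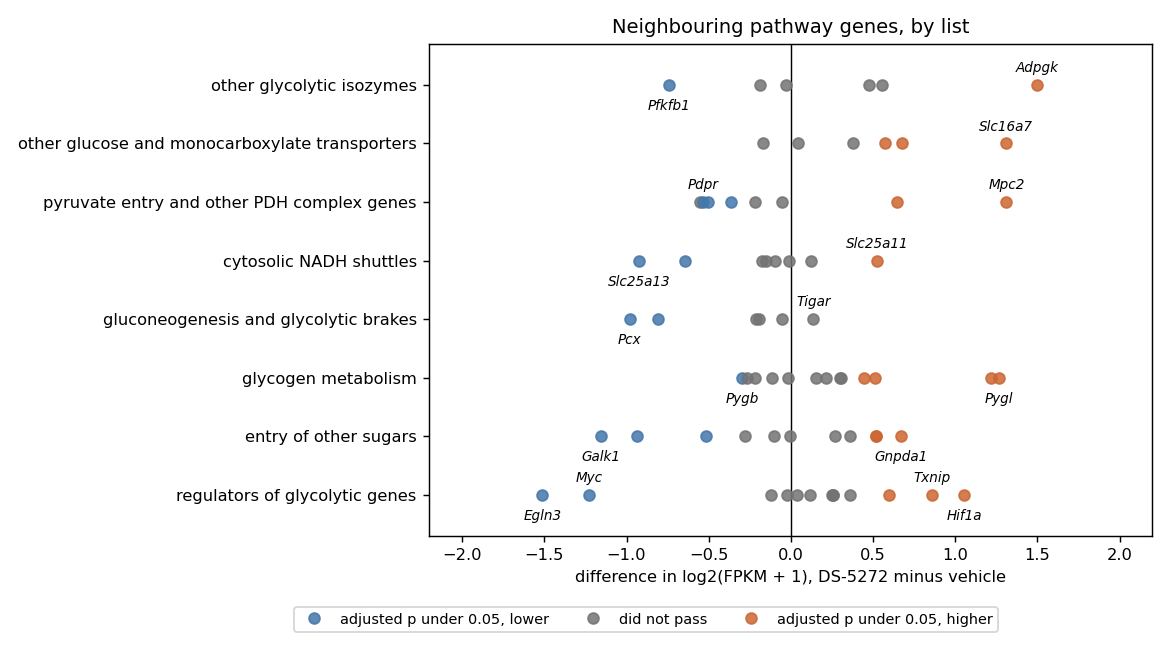
Difference of the 71 tested genes of the 8 neighbouring lists. The x axis is the DS-5272 minus vehicle difference in log2(FPKM + 1), the y axis the list, and colours mark genes that were higher, lower or did not pass at an adjusted p of 0.05 (limma, n = 3 each). Named points are those described in the text, with Adpgk farthest right at 1.5 and Egln3 farthest left at −1.51.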

How the data were processed

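RNA was extracted from sorted leukemia cells of 6 samples and sequenced from strand-specific libraries. Per the submitters' processing notes, reads were trimmed with cutadapt 1.8.1, checked with FastQC, aligned to GRCm38 with TopHat2 2.1.1 and quantified with Cufflinks 2.2.1. The values deposited by the authors are FPKM per gene, already scaled for transcript length and library size, so no count model was used and no counting interval could be given. The table held 26632 entries. Lines sharing a name (435 names) were summed, and 433 lines join several genes. The relative depth came from the steps between values of genes below 0.15 FPKM throughout.

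Groups were taken from the treatment labels. Genes averaging 1 FPKM or more were compared on log2(FPKM + 1) by limma 3.58.1 in R 4.3.3 (lmFit, eBayes with a variance trend, two-sided), with Benjamini-Hochberg adjustment over all tested genes and a threshold of 0.05. Fold changes on this scale understate the change of low genes. The fit was tested on simulated data. Shares and family sums were compared by exact permutation tests over samples with scipy 1.17.1. The genes, families and lists were chosen with earlier results of these data known. All listed genes are named, and of each neighbouring list the called gene with the largest change in each direction, plus Hif1a, Myc, Tigar and Txnip. Of the 97 genes of these lists, 4 were found by an older symbol.

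Each sample's deviation from its group mean was correlated with those of the other group over all genes. Same-numbered samples gave 0.66, 0.21 and 0.43 for numbers 1, 2 and 3, and unlike numbers −0.58 to 0.34. Each value for a shared number exceeded 0.1. So did vehicle replicate 2 with DS-5272 replicate 3 (0.34) and vehicle replicate 3 with DS-5272 replicate 2 (0.18). Pairing by number is therefore an assumption of the block, and neither the labels nor the methods name a shared batch. The main fit and the exact tests do not use the pairing, and the block is given beside a gene or list where it changed a call. Positions and exon overlaps are from GENCODE M21 (GRCm38). Exons of 13 of the 33 tested genes overlap another gene, and whether quantification used strand is not stated. The alternatives were other filters, a pseudocount of 0.1, 4 scalings, the replicate block, no variance trend, the largest line per name, a log2 fold change of at least 1, and leaving out each sample. Amino acid sequences were not used here.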

Additional observations from a re-analysis of the deposited data

How the results depend on the processing

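Against 11 higher and 4 lower genes of the set and a median of 0.36, a common FPKM total gave 5, 9 and 0.12, a common upper quartile 8 lower genes and a median of 0.23, and quantile normalization 9 lower genes and 0.071. The filter of 5 FPKM gave a median of 0.21, and a log2 fold change of at least 1 left 1 higher and 1 lower gene. The replicate block, with same-numbered samples paired, gave 17 higher and 6 lower genes and removed no call. Leaving out each sample gave 6 to 13 higher genes, 1 to 5 lower genes and medians of 0.25 to 0.43, with the fewest calls without vehicle replicate 1 (6 higher, 2 lower), 2 or 3 (7 higher and 1 lower each). Over all tested genes, 2697 were higher and 2451 lower, against 1713 higher with a common total, 978 higher and 621 lower at a log2 fold change of at least 1, and 1623 to 2934 higher and 1389 to 2432 lower without a sample, fewest without vehicle replicate 2. The share of higher genes among all calls was 52.4%, and 32.5% with a common total, 41.3% with a common upper quartile and 43.5% with quantile normalization. Signs turned only in genes that did not pass: Pfkl (−0.079 upper quartile, −0.20 total, −0.056 quantile), Pgk1 (−0.032 quantile), Pgam1 (−0.11 total, −0.28 quantile), Eno3 (−0.071 upper quartile, −0.17 total, −0.098 to 0.18 without a sample) and Gapdh (−0.19 to 0.0086 without a sample). The share differences of Pfkfb2 (0.632 percentage points with quantile normalization, −0.722 to 0.908 without a sample), Aldoa (−0.338 to 0.0504) and Pdk1 (−0.553 to 3.76) also turned. The causes were not tested. For single genes under the alternatives, 452 values kept direction and side of the threshold, 58 lost it, 35 gained it and 11 turned sign. Depth per sample is known only relative to vehicle replicate 1, and each vehicle sample was deeper.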
